A study of Homo sapiens with 8 samples.

Results

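The genotype by irradiation interaction is the change of a transcript after ionizing radiation (IR) in RBM6-KO1 cells minus its change in control cells, on the log2 scale, so that a value below 0 means a lower (less positive or more negative) IR response without RBM6. It was computed from all 8 of the 8 libraries of the series, since each of the 4 groups enters the difference. The cells were MCF10A-Hras, human mammary epithelial cells that do not form tumours by themselves and were here transformed by oncogenic H-Ras, grown with horse serum, EGF, hydrocortisone, cholera toxin and insulin. The groups were untreated control cells (WT), control cells 12 h after 5 Gy of X-rays, untreated RBM6-KO1 cells, and RBM6-KO1 cells 12 h after the same dose, with 2 biological replicates (A and B) each. RBM6-KO1 is 1 clone made with a Cas9 nickase and a pair of guides, so a property of the clone and an effect of losing RBM6, an RNA-binding splicing factor, cannot be told apart here. A library held between 15355281 and 29832009 counts on genes, and 16549 genes passed the filter on low counts. RBM6 mRNA itself went from 66.9 and 68.8 to 54.5 and 48.9 normalized CPM (counts relative to the TMM-scaled library total) in control cells and from 61.5 and 63.2 to 44.01 and 33.9 in RBM6-KO1 cells. Reads of the targeted gene were therefore present in every library, and counts per gene do not show the deleted bases or the protein.

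After a DNA break, p53 induces the CDK inhibitor p21 (CDKN1A), and p21 keeps the RB family of pocket proteins active. These proteins, in the DREAM complex and with E2F factors, hold down genes of the cell cycle. Genes of mitosis carry a CHR element, often with CCAAT boxes that bind NF-Y, and are made late in the cycle, whereas genes of DNA replication and recombination repair tend to carry E2F sites and are made as cells enter S phase. In a bulk library, fewer cells in a phase of the cycle and less RNA per cell cannot be told apart. The gene lists below follow these roles.

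The promoters of 5 genes, taken from the kinetochore, spindle, origin and recombination lists and described below, are given to show where the letters of these elements were found. They are the 300 bases from 250 before to 50 after the RefSeq transcription start on GRCh38.p14, written 5′ to 3′ on the strand of the gene. Capitals mark the CHR element (TTTGAA), the CCAAT box (CCAAT) and the E2F site (TTCCCGC), each searched on both strands. A CCAAT box on the other strand reads ATTGG, and an E2F site there reads GCGGGAA.
CENPF, chr1:214602945-214603244, plus strand: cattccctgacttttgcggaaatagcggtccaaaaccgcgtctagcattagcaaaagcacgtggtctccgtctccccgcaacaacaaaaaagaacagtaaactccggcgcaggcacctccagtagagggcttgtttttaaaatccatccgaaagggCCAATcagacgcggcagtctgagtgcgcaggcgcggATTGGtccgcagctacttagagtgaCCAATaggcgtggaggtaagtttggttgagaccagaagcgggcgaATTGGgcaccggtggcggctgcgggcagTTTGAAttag
KIF20B, chr10:89701340-89701639, plus strand: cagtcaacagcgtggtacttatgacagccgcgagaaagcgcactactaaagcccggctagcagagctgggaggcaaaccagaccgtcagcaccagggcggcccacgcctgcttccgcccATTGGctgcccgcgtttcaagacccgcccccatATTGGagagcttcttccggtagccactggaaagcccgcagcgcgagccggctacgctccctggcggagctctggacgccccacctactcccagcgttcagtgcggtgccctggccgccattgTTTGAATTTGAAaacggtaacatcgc
MCM10, chr10:13161308-13161607, plus strand: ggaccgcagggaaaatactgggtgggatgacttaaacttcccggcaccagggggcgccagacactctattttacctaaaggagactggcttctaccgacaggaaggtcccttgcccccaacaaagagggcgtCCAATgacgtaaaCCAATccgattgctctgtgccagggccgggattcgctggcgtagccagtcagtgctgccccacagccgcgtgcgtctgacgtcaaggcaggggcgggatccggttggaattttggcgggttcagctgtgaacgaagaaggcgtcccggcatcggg
XRCC2, chr7:152676092-152676391, minus strand: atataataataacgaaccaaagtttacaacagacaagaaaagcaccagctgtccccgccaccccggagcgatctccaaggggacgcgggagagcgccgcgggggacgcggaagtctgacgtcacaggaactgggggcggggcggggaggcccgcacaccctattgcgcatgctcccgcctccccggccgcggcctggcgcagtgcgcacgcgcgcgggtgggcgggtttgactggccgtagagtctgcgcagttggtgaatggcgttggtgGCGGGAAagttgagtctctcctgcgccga
BLM, chr15:90717096-90717395, plus strand: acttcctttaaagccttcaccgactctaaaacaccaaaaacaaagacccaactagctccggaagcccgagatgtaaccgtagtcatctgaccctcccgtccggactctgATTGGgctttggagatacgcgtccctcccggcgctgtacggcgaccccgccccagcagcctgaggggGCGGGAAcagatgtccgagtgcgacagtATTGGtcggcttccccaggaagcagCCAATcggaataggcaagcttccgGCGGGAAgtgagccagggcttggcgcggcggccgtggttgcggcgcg
CENPF, of the outer kinetochore, and KIF20B, a kinesin of cell division, both held CHR letters just after the start, and neither held the E2F letters. CENPF held 4 CCAAT boxes, before and just after the start, and KIF20B held 2, both before it. MCM10, of the origin list, held 2 CCAAT boxes and neither the CHR nor the E2F letters searched for. XRCC2 and BLM, of recombination repair, held E2F letters and no CHR element. Among the 11107 tested genes matched to a promoter by symbol, 9.81% held a CHR element, 36.3% a CCAAT box and 10.2% an E2F site. A CHR element was present in 24 of 33 promoters (72.7%) of the spindle list, 9 of 17 (52.9%) of the mitotic kinases and cyclins and 14 of 37 (37.8%) of the kinetochore list. It was present in 1 of 23 promoters of the origin list, 1 of 35 of the replication fork list and 6 of 41 (14.6%) of the recombination list. E2F letters were present in 7 of 23 (30.4%), 13 of 35 (37.1%) and 16 of 41 (39%) promoters of the origin, fork and recombination lists, and in 9 of 37 (24.3%) of the kinetochore list, 2 of 17 (11.8%) of the mitotic kinases and cyclins and 1 of 33 of the spindle list. A match is a description of the letters and not a shown binding site. Other forms of these elements were not searched, so missing letters do not show that an element is absent.

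No single gene was shown to differ in its IR response between the genotypes beyond the spread between replicates. An adjusted p under 0.05 for the interaction was reached by 0 (0%) of the 16549 genes in the quasi-likelihood test of edgeR after adjustment by the Benjamini-Hochberg method. At an unadjusted p under 0.05, DESeq2 gave 167 genes and edgeR gave 306 (1.85%), where uniform p-values would give 827.45. The 306 were made up of 189 (1.14%) with a lower and 117 (0.707%) with a higher response in RBM6-KO1 cells. Over all genes the median interaction was -0.01, with 8489 genes below 0, and the median standard error of a gene was 0.33. The gene-level interactions below are therefore given as values with their standard errors, and none of them passed the adjusted test.

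The stability of a sign was described over the 16 ways of taking 1 library from each group. All 16 values lay below 0 for 948 genes (5.73%) and above 0 for 866 (5.23%). Combinations that share libraries are not independent, and the 8 pairs of combinations that share none did not resemble each other across all genes. Pearson's r across the 16549 genes, which are not independent points, ran from -0.35 to 0.02 over these 8 pairs, and the share of genes with the same sign ran from 29.9% to 49.6%. Over the 9260 genes with a mean of at least 10 CPM, r ran from -0.72 to 0.06 and the share from 21.4% to 47.6%. With the correction for GC content and length described at the end, r over all genes ran from -0.25 to 0.02. The lowest r belonged to the pair that set replicate A of both control groups and replicate B of both RBM6-KO1 groups against the reverse. The 948 and 866 genes had median sizes of 0.66 and 0.49 log2 units, against 0.18 for all genes. Choosing genes by a constant sign itself favours larger values. A mean of at least 10 CPM was reached by 354 of the 948 and 389 of the 866, beside 9260 of the 16549. Of the 948 lower genes, 426 had fitted responses of opposite sign (up in control, down in RBM6-KO1 cells), 292 were negative in both genotypes and 230 positive in both.

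The IR response of the gene lists is the base of the difference. In the fit of all 8 libraries, with an adjusted p under 0.05 and at least a 2-fold change, 196 genes (1.18%) were called higher and 195 (1.18%) lower in control cells, and 172 (1.04%) higher and 303 (1.83%) lower in RBM6-KO1 cells. Members of the lists were read against these shares. The lists hold 1254 genes in 38 lists, of which 1145 were tested.

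**Figure D1:**
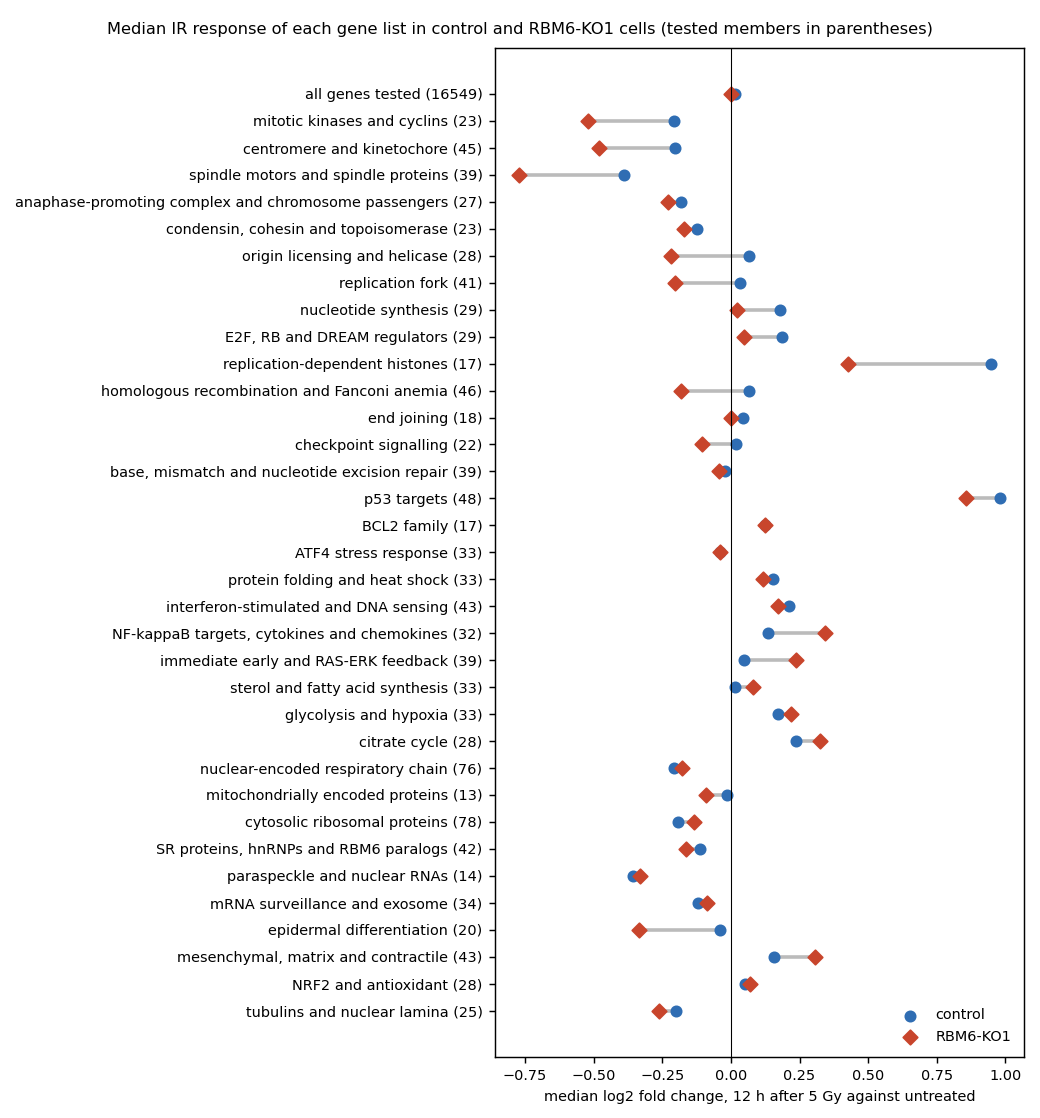
Median log2 fold change after IR (x axis) of each gene list (y axis, tested members in parentheses) in control cells (circles) and RBM6-KO1 cells (diamonds), from the fit of all 8 libraries. The 3 mitotic lists lie further below 0 in RBM6-KO1 cells, the origin, fork and recombination lists lie on opposite sides of 0, and the p53 targets lie near 0.98 and 0.86.

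Genes of mitosis had median responses below 0 in both genotypes, and these lay further below 0 in RBM6-KO1 cells. The mitotic kinases and cyclins had a median log2 response of -0.21 in control and -0.52 in RBM6-KO1 cells, the kinetochore list -0.20 and -0.48, and the spindle list -0.39 and -0.77. The median interaction was -0.17, -0.25 and -0.28, respectively. It lay below 0 for 22 of 23 mitotic kinases and cyclins, 38 of 45 kinetochore genes and 37 of 39 spindle genes, beside 51.3% of all genes. All 16 combinations were below 0 for 3 (13.04%), 9 (20%) and 10 (25.6%) of them, beside 5.73% of all genes, and above 0 only for NSL1 of the kinetochore list, beside 5.23%. In RBM6-KO1 cells 4, 7 and 14 members of these lists were called lower after IR, beside 1.83% of all genes. In control cells 1, 2 and 1 were called lower, beside 1.18% of all genes. A call in 1 genotype and not in the other does not show a difference between them.

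CENPF (chromosome 1, 214603185 to 214664574) had the smallest interaction p of any listed gene. It had 99.5 and 86.3 normalized CPM before and 41.1 and 44.5 after IR in control cells, against 134 and 186 before and 38.4 and 30.8 after IR in RBM6-KO1 cells. Its untreated RBM6-KO1 libraries lay above both untreated control libraries and its irradiated RBM6-KO1 libraries below both irradiated control libraries. CENPF fell by 1.12 on the log2 scale in control cells (adjusted p = 0.0168 from edgeR) and by 2.21 in RBM6-KO1 cells (adjusted p = 0.000646 from edgeR). The interaction was -1.09 (standard error 0.26, 95% interval -1.67 to -0.51, unadjusted p = 0.00167 and adjusted p = 1 from edgeR), and the 16 combinations ran from -1.64 to -0.52.

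KIF20B (chromosome 10, 89701590 to 89774939) showed the same order of groups. Its levels were 26.9 and 28.2 normalized CPM before and 12.3 and 13.4 after IR in the control, and 38.3 and 75.4 before and 10.9 and 7.25 after IR in the RBM6-KO1 libraries. The interaction was -1.54 (standard error 0.42, unadjusted p = 0.00378 from edgeR). When the library with the highest level, untreated RBM6-KO1 replicate B, was left out, it was -0.99. SGO2, a shugoshin that protects centromeric cohesion, had 16.3 and 11.1 normalized CPM before and 4.14 and 4.28 after IR in control cells, against 25.1 and 36.9 before and 5.47 and 3.72 after IR in RBM6-KO1 cells, an interaction of -1.06 (standard error 0.39). The irradiated libraries of the genotypes overlapped, whereas the untreated ones did not. MKI67, the proliferation marker Ki-67, went from 235 and 165 to 110 and 124 normalized CPM in control cells and from 284 and 270 to 103 and 96.2 in RBM6-KO1 cells, an interaction of -0.71 (standard error 0.24).

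**Figure D2:**
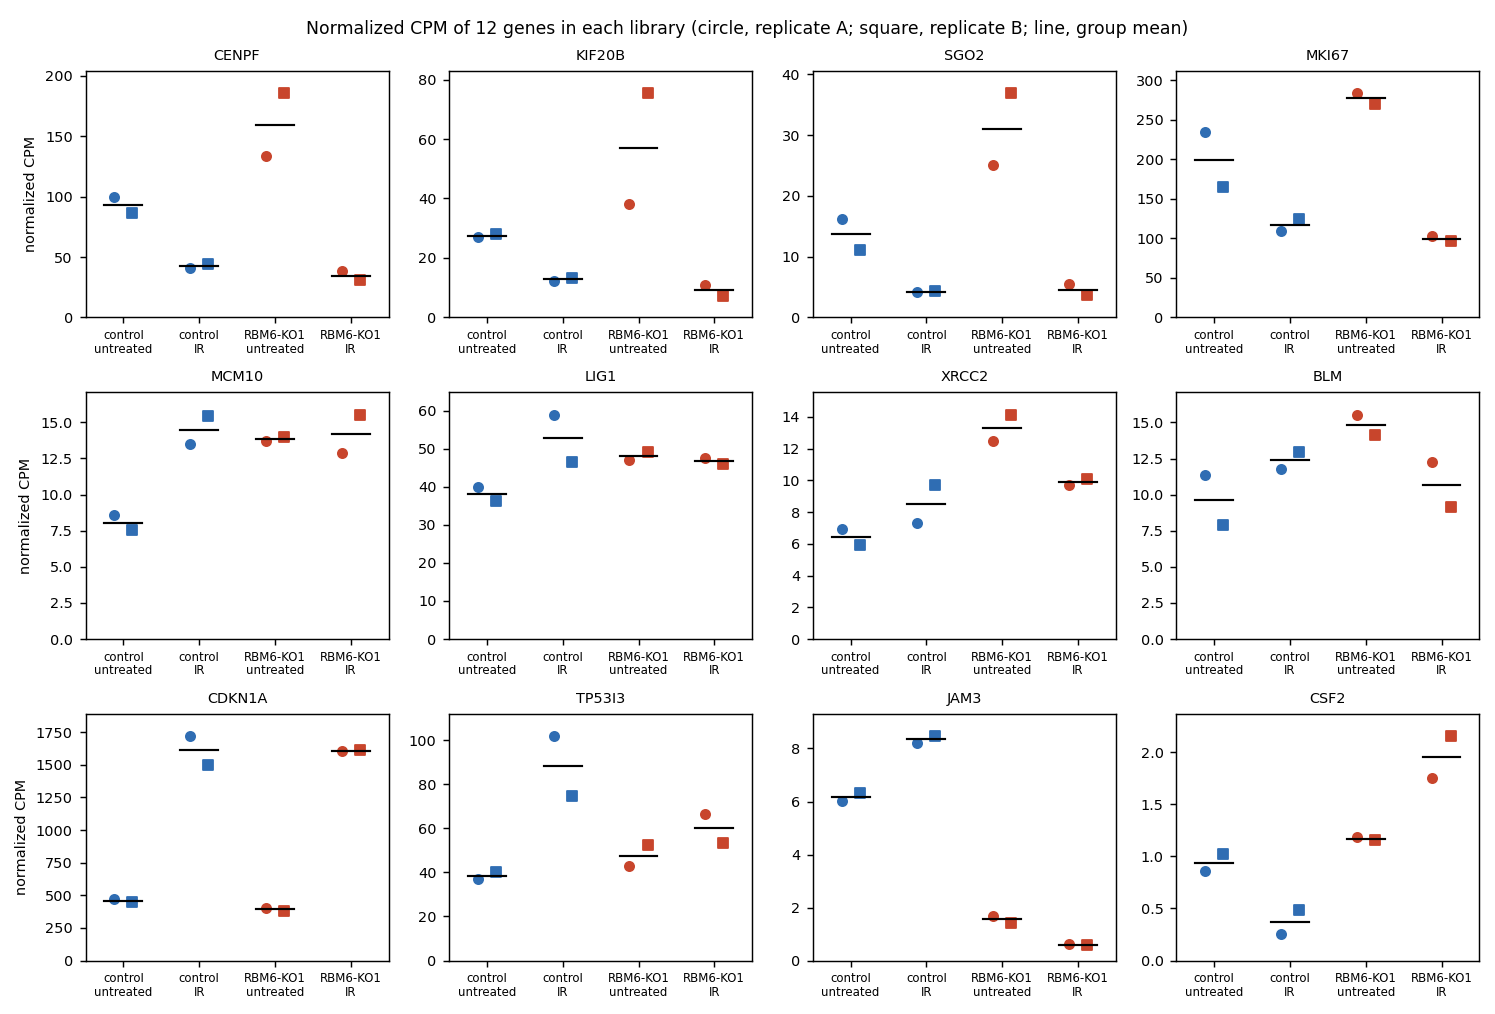
Normalized CPM (y axis, linear, from 0) of 12 genes in each library by group (x axis), with control in blue and RBM6-KO1 in red, replicate A as circles, replicate B as squares and the group mean as a line. For CENPF, KIF20B, SGO2 and MKI67 the untreated RBM6-KO1 libraries are the highest, and for CDKN1A the irradiated libraries of the genotypes lie between 1500 and 1720.

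Other mitotic genes had interactions closer to 0 than that of CENPF. ASPM, which focuses spindle poles, had an interaction of -0.91 (standard error 0.37), and KIF18B and KIF15, kinesins of the spindle, had -0.52 and -0.75 (standard errors 0.22 and 0.33). Among the regulators, CCNF had -0.42, AURKA -0.35 and CCNB2 -0.34 (standard errors 0.23, 0.20 and 0.19), each with all 16 combinations below 0. CDC20, which activates the anaphase-promoting complex, fell by 1.31 in control cells and by 1.74 in RBM6-KO1 cells on the log2 scale (adjusted p = 0.00326 and 0.000714 from edgeR), an interaction of -0.43 (standard error 0.21). In contrast, CCNB1 and PLK1, which drive entry into mitosis, had interactions of -0.12 and -0.19 (standard errors 0.19 and 0.21) with combinations on both sides of 0. TOP2A, the decatenating topoisomerase of mitosis, had -0.57 (standard error 0.33) but ran from -1.36 to 0.13 over the combinations. Its untreated control libraries were at 313 and 184 normalized CPM.

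The medians of the mitotic lists moved with the untreated control library. With replicate A of untreated control cells, the median interaction of the spindle list ran from -0.25 to 0.02 over 8 combinations, and with replicate B from -0.69 to -0.36. For the mitotic kinases and cyclins the ranges were -0.18 to 0.05 and -0.43 to -0.22, and for the kinetochore list -0.24 to -0.04 and -0.42 to -0.26. The list medians were thus below 0 with either library, apart from 1 combination each for the kinase and spindle lists. With untreated control replicate A left out of the fit, the medians of the kinase, kinetochore and spindle lists were -0.33, -0.35 and -0.47, and with replicate B of that group left out they were -0.067, -0.14 and -0.19.

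**Figure D3:**
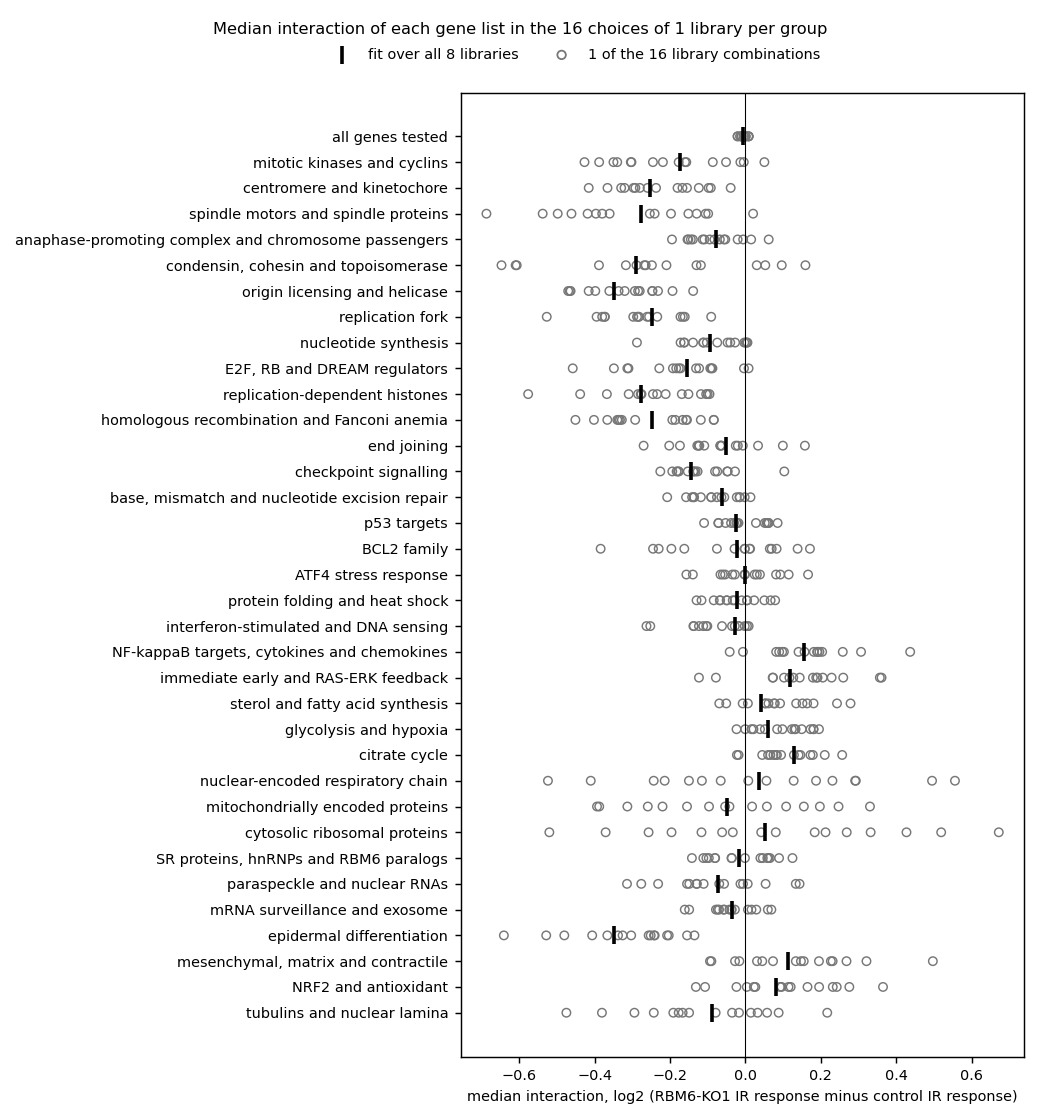
Median interaction (x axis, log2) of each gene list (y axis) in each of the 16 choices of 1 library per group (open circles) and in the fit of all 8 libraries (black bars). The kinetochore, origin, fork, histone, recombination and epidermal lists have all 16 circles below 0, and the ribosomal protein and respiratory chain lists spread widely on both sides.

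Among the other lists of chromosome segregation, the anaphase-promoting complex and chromosome passengers had a median interaction of -0.08, with 18 of 27 genes below 0. Condensin, cohesin and topoisomerase genes had -0.29 with 18 of 23 below 0, yet the list median lay above 0 in 4 of the 16 combinations, all of them with replicate A of both control groups.

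Replication genes had median responses near 0 in control cells and below 0 in RBM6-KO1 cells. The list of origin licensing and helicase genes had a median response of 0.06 in control and -0.22 in RBM6-KO1 cells, and the replication fork list 0.03 and -0.20. Their median interactions were -0.35 and -0.25, with 27 of 28 and 37 of 41 genes below 0. All 16 combinations were below 0 for 13 origin genes (46.4%) and 14 fork genes (34.1%), beside 5.73% of all genes, and the list medians lay below 0 in 16 of 16 combinations, from -0.47 to -0.14 and from -0.53 to -0.09. The origin median was -0.25 without replicate A of control cells after IR. Of the 13 origin and 14 fork genes, 7 (53.8%) and 8 (57.1%) had fitted responses of opposite sign in the genotypes. This share was 44.9% among the 948 genes lower in all 16 combinations.

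MCM10, which helps to activate the replicative helicase, went from 8.59 and 7.51 to 13.5 and 15.4 normalized CPM in control cells and from 13.7 and 14.01 to 12.9 and 15.5 in RBM6-KO1 cells. Only the untreated control libraries were low, and the other 6 libraries overlapped. The interaction was -0.81 (standard error 0.27, unadjusted p = 0.0125 from edgeR). LIG1, the ligase of Okazaki fragments, had 39.8 and 36.3 normalized CPM before and 59.0 and 46.6 after IR in control cells, against 47.1 and 49.1 before and 47.5 and 46.0 after IR in RBM6-KO1 cells. Its level differed by less than the spread between replicates before and after IR in RBM6-KO1 cells. The interaction was -0.51 (standard error 0.22).

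GINS4, a subunit of the helicase, and CDC6 and ORC6, which load MCM proteins, had interactions of -0.60, -0.49 and -0.53 (standard errors 0.30, 0.27 and 0.26). MCM2 had -0.40 (standard error 0.22). At the fork, CHAF1A and ASF1B, histone chaperones, had -0.61 and -0.57 (standard errors 0.27 and 0.25). UHRF1, which guides maintenance methylation, had -0.53 (standard error 0.24), and FEN1, the flap nuclease, had -0.51 (standard error 0.25). PCNA, the sliding clamp and also a p53 target, went from 96.2 and 77.0 to 172 and 144 normalized CPM in control cells and from 92.8 and 93.7 to 124 and 129 in RBM6-KO1 cells, an interaction of -0.43 (standard error 0.21). The exception was ORC4, of the origin recognition complex, with 0.50 (standard error 0.23) and all 16 combinations above 0. Among the E2F, RB and DREAM regulators the median was -0.15, with 22 of 29 genes below 0, including CDC25A, the phosphatase of CDK2, with -0.68 (standard error 0.25), and FOXM1, the mitotic transcription factor, with -0.33 (standard error 0.19). Genes of nucleotide synthesis had a median of -0.09.

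Replication-dependent histone genes make transcripts without poly(A) tails, which a poly(A)-selected library holds poorly, and 17 of 62 passed the filter. They had median responses of 0.95 in control and 0.43 in RBM6-KO1 cells and a median interaction of -0.28, with 10 of 17 below 0. H1-2, a linker histone, went from 4.48 and 4.99 to 7.83 and 6.31 normalized CPM in control cells and from 6.08 and 9.05 to 6.71 and 4.90 in RBM6-KO1 cells, an interaction of -0.94 (standard error 0.38).

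The genes of homologous recombination and the Fanconi anemia pathway, which repair breaks and crosslinks with a sister copy, also had medians on either side of 0. Their median response was 0.07 in control and -0.18 in RBM6-KO1 cells, the interaction had a median of -0.25, and 35 of 46 tested genes lay below 0. None of the 46 was called after IR in either genotype. Of all genes, 1.18% were called higher and 1.18% lower in control cells, and 1.04% and 1.83% in RBM6-KO1 cells. A count of 0 in 46 genes is close to these shares. For 12 genes (26.1%) all 16 combinations were below 0, beside 5.73% of all genes, and for 0 they were all above 0, beside 5.23%. The list median lay below 0 in 16 of 16 combinations, from -0.45 to -0.08. Like the medians of the mitotic lists, it moved with the untreated control library. It ran from -0.19 to -0.08 with replicate A of untreated control cells and from -0.45 to -0.29 with replicate B. With untreated control replicate A left out it was -0.34, and with irradiated control replicate B left out it was -0.12.

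XRCC2, of recombination repair, had 6.94 and 5.90 normalized CPM before and 7.32 and 9.72 after IR in control cells, against 12.5 and 14.2 before and 9.70 and 10.1 after IR in RBM6-KO1 cells. The untreated RBM6-KO1 libraries were the highest and the untreated control libraries the lowest. The interaction was -0.85 (standard error 0.30, unadjusted p = 0.0172 from edgeR). BLM, the helicase that dissolves recombination intermediates, went from 11.4 and 7.89 to 11.8 and 12.97 normalized CPM in control cells and from 15.5 and 14.2 to 12.2 and 9.11 in RBM6-KO1 cells, an interaction of -0.85 (standard error 0.33). FANCD2, the monoubiquitinated protein of the Fanconi pathway, had -0.63 (standard error 0.25) and FANCM, its anchor, -0.95 (standard error 0.38). BRCA1 had -0.58 (standard error 0.28) with all 16 combinations below 0. BRCA2 had a value of -0.91, but its standard error was 0.66 and it turned to 0.20 without replicate B of control cells after IR. The value above 0 furthest from it, 0.71 (standard error 0.77), belonged to RAD54B, which had under 1 normalized CPM in every library.

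For the origin, fork and recombination lists the medians of the genotypes lay further apart before IR than after it. The median difference of RBM6-KO1 from control cells in untreated cells was 0.19 for the origin list, 0.22 for the fork list and 0.23 for the recombination list, with 23 of 28, 34 of 41 and 43 of 46 genes higher. After IR it was -0.13, -0.01 and 0.08, with 8, 20 and 29 genes higher. The kinetochore list had 0.25 before and 0.00 after IR. The spindle list had 0.06 and -0.23, and the mitotic kinases and cyclins -0.07 and -0.24, so for these the medians lay further apart after IR. Over all genes the values were 0.02 and 0.01.

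**Figure D4:**
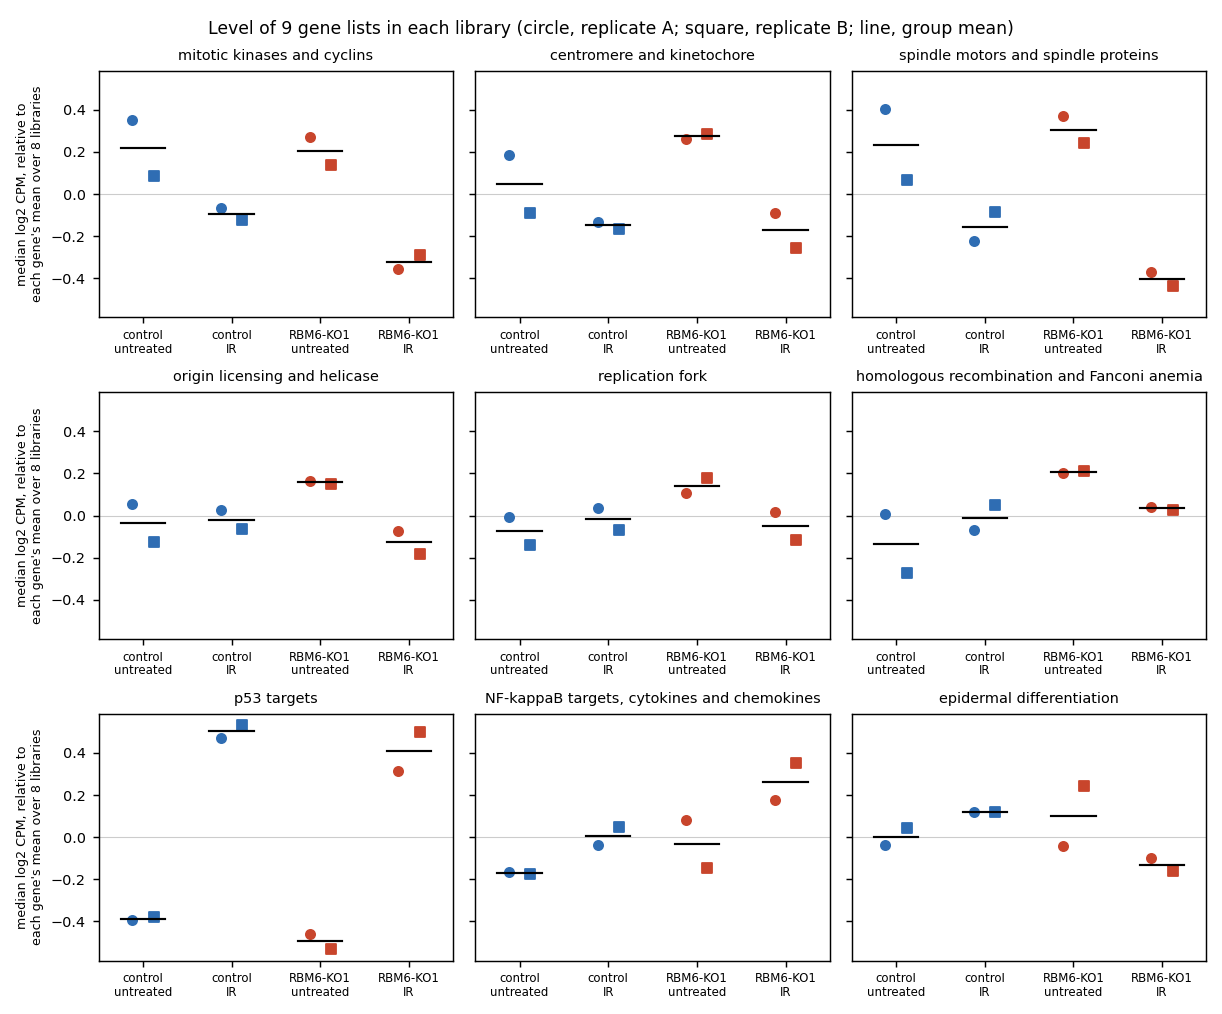
Median log2 CPM of 9 gene lists in each library, relative to each gene's mean over the 8 libraries (y axis), by group (x axis), with replicate A as circles, replicate B as squares and the group mean as a line. In the origin, fork and recombination lists both untreated RBM6-KO1 libraries are the highest of the 8, and in the kinase and spindle lists both irradiated RBM6-KO1 libraries are the lowest.

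The other repair lists were closer to 0. End joining genes had a median interaction of -0.05, with 11 of 18 below 0, checkpoint signalling genes -0.14 with 16 of 22, and base, mismatch and nucleotide excision repair genes -0.06 with 25 of 39. None of the 18 end joining genes had all 16 combinations below 0, beside 5.73% of all genes. For 1, XRCC4, all 16 were above 0, beside 5.23%. With the correction for GC content and length described at the end, 3 (16.7%) were lower in all 16, beside 6.88% of all genes, and 0 higher, beside 6.1%. The test of these lists against the recombination list was not made.

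Targets of p53, which arrest, repair or kill the damaged cell, had median responses close to each other in the genotypes. The median response was 0.98 in control and 0.86 in RBM6-KO1 cells, 20 and 17 of the 48 tested genes were called higher, and 0 were called lower in either. The median interaction was -0.02, with 27 of 48 genes below 0, all 16 combinations were below 0 for 2 (beside 5.73% of all genes) and above 0 for 3 (beside 5.23%), and the list median lay below 0 in 9 of 16 combinations, from -0.11 to 0.09. It was 0.05 without replicate B of control cells after IR and 0.04 without replicate A of RBM6-KO1 cells after IR. CDKN1A, which encodes p21, went from 470 and 449 to 1720 and 1500 normalized CPM in control cells and from 402 and 383 to 1607 and 1611 in RBM6-KO1 cells, an interaction of 0.22 (standard error 0.18, 95% interval -0.17 to 0.62). GDF15, a secreted stress factor, had an interaction of 0.31 (standard error 0.18), and MDM2, the ubiquitin ligase of p53, -0.17 (standard error 0.23).

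Within this list single genes lay apart in either direction. TP53I3, an oxidoreductase induced by p53, had 37.1 and 40.02 normalized CPM before and 102 and 74.4 after IR in control cells, against 43.0 and 52.2 before and 66.5 and 53.5 after IR in RBM6-KO1 cells. It rose by 1.19 on the log2 scale in control cells (adjusted p = 0.0144 from edgeR) and had a value of 0.33 in RBM6-KO1 cells (adjusted p = 0.268 from edgeR). The interaction was -0.86 (standard error 0.27, unadjusted p = 0.00867 from edgeR). DDB2, a damage sensor of nucleotide excision repair, went from 64.7 and 67.2 to 146 and 132 normalized CPM in control cells and from 45.0 and 44.8 to 76.5 and 71.1 in RBM6-KO1 cells, an interaction of -0.36 (standard error 0.19). TNFSF9, the ligand of 4-1BB, had 29.2 and 42.2 normalized CPM before and 77.8 and 64.8 after IR in control cells, against 17.96 and 18.3 before and 61.3 and 58.4 after IR in RBM6-KO1 cells. Its RBM6-KO1 libraries were lower than control both before and after IR, with the smaller gap after it, and the interaction was 0.73 (standard error 0.27).

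**Figure D5:**
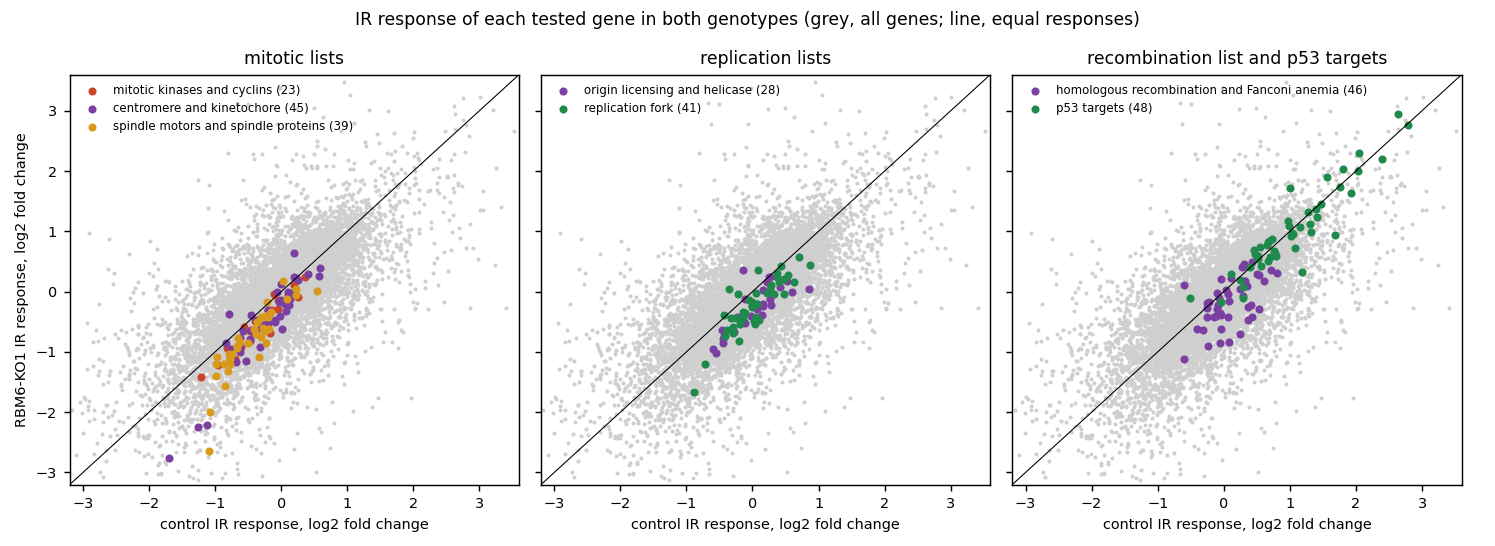
IR response (log2 fold change) in control cells (x axis) against RBM6-KO1 cells (y axis) of each tested gene (grey, with 91 of the 16549 genes outside the axes), with the members of 7 lists in colour and the line of equal responses. Mitotic, replication and recombination genes lie mostly below the line, and the p53 targets lie along it.

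Lists with a median interaction above 0 included those of inflammation, early response and metabolism. NF-kappaB targets, cytokines and chemokines had a median response of 0.13 in control and 0.34 in RBM6-KO1 cells and a median interaction of 0.15, with 10 of 32 genes below 0. All 16 combinations were above 0 for 7 of them (21.9%), beside 5.23% of all genes, and below 0 for 2, beside 5.73%. With the correction for GC content and length these counts were 3 and 3 (9.38% each), beside 6.1% and 6.88% of all genes. The list median ran from -0.04 to 0.44 over the combinations and lay below 0 in 2 of 16. IL24 went from 66.0 and 88.7 to 59.8 and 81.2 normalized CPM in control cells and from 45.9 and 35.0 to 58.5 and 60.6 in RBM6-KO1 cells, an interaction of 0.69 (standard error 0.29). IL33, an alarmin, had 1.17 (standard error 0.49). CSF2, the growth factor GM-CSF, had 1.98 (standard error 0.61) but stood at 0.26 to 2.15 normalized CPM in the 8 libraries. CXCL8, the chemokine IL-8, had 384 and 382 normalized CPM before and 394 and 601 after IR in control cells, against 675 and 440 before and 1014 and 1504 after IR in RBM6-KO1 cells, an interaction of 0.80 (standard error 0.36) with combinations on both sides of 0.

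Immediate early and RAS-ERK feedback genes had a median interaction of 0.12, with 10 of 39 below 0 and all 16 combinations above 0 for 4 (10.26%), beside 5.23% of all genes. With the correction for GC content and length this count was 3 (7.69%), beside 6.1% of all genes. The list median ran from -0.12 to 0.36 over the combinations and lay below 0 in 2 of 16. Among the members FOS and JUNB, subunits of AP-1, had 0.40 and 0.37 (standard errors 0.22 and 0.18). Citrate cycle genes had 0.13 with 5 of 28 below 0, and NRF2 and antioxidant genes 0.08 with 6 of 28 below 0. Over the combinations these list medians ran from -0.02 to 0.26 and from -0.13 to 0.37. With the correction both lay above 0 in 16 of 16. The aldo-keto reductases AKR1C1, AKR1C2 and AKR1C3, whose near-identical sequences could share reads, had 0.56, 0.82 and 0.46 (standard errors 0.23, 0.29 and 0.20). AKR1C1 went from 688 and 951 to 343 and 366 normalized CPM in control cells and from 980 and 1144 to 694 and 663 in RBM6-KO1 cells. SDHD, a subunit of succinate dehydrogenase, had 0.40 (standard error 0.20).

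Cytosolic ribosomal protein genes and nuclear-encoded respiratory chain genes show how far a list can move with the choice of libraries. Their median interactions were 0.05 and 0.04 in the fit of all 8 libraries, but over the 16 combinations they ran from -0.52 to 0.67 and from -0.52 to 0.56. These ranges were wider than those of the origin and recombination lists. All 16 combinations were above 0 for 2 of 78 (2.56%) and 2 of 76 (2.63%) genes, beside 5.23% of all genes. They were below 0 for 0 in both lists, beside 5.73%. RPS10, 1 of the ribosomal genes with all 16 above 0, stood at 0.52 to 2.04 normalized CPM.

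Further lists of signalling, metabolism and RNA processing had medians from -0.09 to 0.11. Mesenchymal, matrix and contractile genes had 0.11, with 14 of 43 below 0, and the list median ran from -0.09 to 0.50 over the combinations. Among them ITGA5, the fibronectin receptor subunit, had 0.51 (standard error 0.21). Glycolysis and hypoxia genes had 0.06, and sterol and fatty acid synthesis genes 0.04. ATF4 stress genes had -0.0022, and SLC7A5, an amino acid transporter, went from 624 and 692 to 681 and 545 normalized CPM in control cells and from 536 and 690 to 361 and 352 in RBM6-KO1 cells, an interaction of -0.68 (standard error 0.23). The medians were -0.02 for the BCL2 family, protein folding and the SR proteins and hnRNPs, -0.03 for interferon-stimulated genes, -0.04 for mRNA surveillance, -0.05 for mitochondrially encoded proteins, -0.07 for paraspeckle and nuclear RNAs and -0.09 for tubulins and lamina genes. The 4 genes that the study singled out, RBM6, APBB1, EYA2 and PPP2R2C, had interactions of -0.29, -0.74, 0.98 and 0.83 (standard errors 0.22, 0.64, 0.64 and 0.49), a median of 0.27, and 0 of them had all 16 combinations on 1 side. APBB1, EYA2 and PPP2R2C were chosen on these samples, so they are not independent evidence of a direction. RBM6 is the gene that was knocked out.

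Genes of epidermal differentiation had a median response of -0.04 in control and -0.34 in RBM6-KO1 cells, a median interaction of -0.35, and 17 of 20 tested genes below 0, with the list median below 0 in 16 of 16 combinations. All 16 combinations were below 0 for 3 genes (15%), beside 5.73% of all genes, and above 0 for 0, beside 5.23%. TGM1, the transglutaminase of the cornified envelope, went from 3.74 and 4.61 to 3.95 and 4.02 normalized CPM in control cells and from 4.45 and 4.56 to 2.48 and 2.11 in RBM6-KO1 cells, an interaction of -0.90 (standard error 0.35). Its irradiated RBM6-KO1 libraries were the lowest of the 8. IVL, involucrin, rose by 1.89 on the log2 scale in control cells (adjusted p = 0.0345 from edgeR) from 0.80 and 0.59 to 2.72 and 2.45 normalized CPM, and stood at 0.84 and 0.68 before and 1.55 and 0.88 after IR in RBM6-KO1 cells. A call in control cells does not by itself show a difference between the genotypes, and these levels are low. KRT5, the basal keratin, had 1074 and 1247 normalized CPM before and 1623 and 1369 after IR in control cells, against 1097 and 1320 before and 1057 and 1089 after IR in RBM6-KO1 cells, an interaction of -0.54 (standard error 0.21).

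The summed level of the 9 basal breast epithelial markers was lowest in the irradiated RBM6-KO1 libraries. Before IR it was already lower in the RBM6-KO1 than in the control libraries. It ran from 15005 to 18542 CPM in untreated control cells, 13656 to 15123 in control cells after IR, 13889 to 14663 in untreated RBM6-KO1 cells and 11566 to 12081 in RBM6-KO1 cells after IR, and all 9 passed the filter. Their median interaction was -0.15, with 6 of 9 below 0. Over the combinations this median moved with the untreated control library. It ran from -0.56 to -0.08 with replicate A, below 0 in 8 of 8 combinations. With replicate B it ran from -0.03 to 0.25, below 0 in 1 of 8. Of 10 luminal markers, 4 passed the filter and PGR, KRT19 and ELF5 had at most 3 counts in any library. Of 12 fibroblast, blood and endothelial markers 5 passed, CD3E was at 0 in every library and COL1A2, PTPRC and CD68 had at most 3 counts, while their sum ran from 96.5 to 219 CPM over the 8 libraries. The median interaction of the tested luminal markers was -0.03 and that of the fibroblast, blood and endothelial markers 0.19. The part of these markers in the interaction was not tested.

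Outside the lists, the genes with the smallest interaction p among those with all 16 combinations on 1 side included low-expressed ones. JAM3, a junctional adhesion molecule, went from 6.02 and 6.33 to 8.22 and 8.47 normalized CPM in control cells and from 1.69 and 1.43 to 0.62 and 0.59 in RBM6-KO1 cells. Its interaction was -1.80 (standard error 0.38, unadjusted p = 0.000707 from edgeR), the smallest p of all genes, and its irradiated RBM6-KO1 libraries held 12 counts each. PTX3, a pentraxin, had an interaction of -1.35 (standard error 0.37), up in control cells from 2.58 and 1.66 to 3.95 and 3.48 normalized CPM and down in RBM6-KO1 cells from 7.83 and 7.42 to 5.01 and 5.49. ACVRL1, a BMP receptor, held 0 to 19 counts per library, with 0 in 1 irradiated RBM6-KO1 library, and its fitted value depends on the prior count and is not given.

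In the other direction, ADGRG3, an adhesion receptor, had 17.6 and 18.6 normalized CPM before and 10.2 and 8.82 after IR in control cells, against 6.53 and 6.26 before and 7.59 and 6.61 after IR in RBM6-KO1 cells, an interaction of 1.08 (standard error 0.27, unadjusted p = 0.00246 from edgeR). DHRS3, a retinaldehyde reductase, went from 213 and 241 to 199 and 146 normalized CPM in control cells and from 86.7 and 90.2 to 134 and 113 in RBM6-KO1 cells, an interaction of 0.88 (standard error 0.24). TNFAIP6, which binds hyaluronan, had 1.198 (standard error 0.34), ALOX5AP, of leukotriene synthesis, 1.54 (standard error 0.47) and LRG1, a secreted glycoprotein, 1.67 (standard error 0.50). ALOX5AP stood at 36.0 to 47.8 normalized CPM in the control libraries and at 0.41 to 2.06 in the RBM6-KO1 libraries, so its value compares changes at very different levels. LRG1 held only 8 and 6 counts in the untreated RBM6-KO1 libraries, or 0.45 and 0.41 normalized CPM. In the control libraries LRG1 stood at 2.31 to 3.11. SALL2 was at 0 counts in both untreated RBM6-KO1 libraries, and EDARADD in 1 of them, so that their fitted values depend on the prior count and are not given.

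Base composition moved with the replicates and not with the interaction. Across 16417 genes, Spearman's rho of GC content with the interaction was 0.01, whereas it was -0.24 with the control response and -0.22 with the RBM6-KO1 response. The difference of replicate A from replicate B had a rho of -0.39 in untreated control cells, 0.38 in control cells after IR, -0.15 in untreated RBM6-KO1 cells and 0.23 in RBM6-KO1 cells after IR. With trends in GC content and exon length removed, a correction chosen after seeing the data, the list medians were -0.23 for mitotic kinases and cyclins, -0.27 for the kinetochore, -0.32 for the spindle, -0.36 for origin licensing, -0.26 for the fork, -0.21 for recombination and -0.02 for p53 targets. The median of the mitochondrially encoded proteins turned from -0.05 to 0.04. The medians of the kinase and spindle lists then lay below 0 in 16 of 16 combinations.

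Grouped by promoter letters alone, genes had medians close to 0. The 449 tested genes with both a CHR element and a CCAAT box had a median interaction of -0.07, with 9.58% lower in all 16 combinations, beside 5.28% of the 11107 genes with a promoter. The 367 of these genes that are in none of the lists had a median of -0.03 and 7.08%. The 1128 genes with E2F letters had a median of -0.01 and 6.74%. Those 981 of them that are in none of the lists had a median of -0.01 and 5.61%.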

How the data were processed

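RNA-seq libraries of control and RBM6-KO1 MCF10A-Hras cells, untreated or 12 h after 5 Gy, were analysed, 8 libraries in 4 groups of 2. Per the labels, libraries were made with a TruSeq mRNA kit, and the submitters' processing notes name STAR, DESeq2 and hg38. The authors deposited raw read counts per Ensembl gene, without normalization. The counting tool, annotation version and strandedness are not given in the sources used here, so reads of a gene and an antisense partner may not be separated. GENCODE v44 gave symbols for 57392 of 58233 identifiers. H2AC18, H2AC19, H3C2, H3C3 and SOD2 were not matched.

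The fit was made with edgeR 4.0.16 in R 4.3.3 (TMM, filterByExpr, quasi-likelihood test, 1 fit of 4 groups), with Benjamini-Hochberg adjustment over 16549 genes. Standard errors came from the fold change and the F statistic (size over root F). IR responses were called where the adjusted p was under 0.05 and the change at least 2-fold. For the combinations, a prior count of 2 was used on log2 CPM. The 38 lists and the named genes (the smallest p among genes with all 16 combinations on 1 side, 8 in each direction and up to 3 in each list, plus a fixed set, with some others named after their values were seen) were chosen with earlier results of these data known, so no list is independent support. Lists were described by counts and medians, with no test, since their members share the same libraries. The test was checked on simulated counts. The labels do not say what separates the replicates, so p-values measure the spread between these samples. A count of 0 allows up to 3 counts, or 0.101 to 0.195 CPM, for counting error only.

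Alternatives were DESeq2 1.42.0, limma 3.58.1 (voom), other normalizations and filters, a prior count of 0.5, a replicate block and leaving out each library. A GC and length correction, a crossed block and no normalization were added after seeing the data. Deviations of same-lettered libraries from their group means correlated from -0.28 to 0.35, so the letters were not taken to pair the samples. Some members of the lists are not reported here by name.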

Additional observations from a re-analysis of the deposited data

How the results depend on the processing

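The interaction gave 0 calls at an adjusted p under 0.05 under each alternative except with no filter on low counts, where 1 of the genes passed, KIF20B (interaction -1.57). The count at an unadjusted p under 0.05, 306 in edgeR, was 167 with DESeq2, 198 with at least 10 counts in every library, 701 with no filter and 665 with the crossed replicate block, and ran from 262 to 525 with 1 library left out, the highest without replicate B of control cells after IR. With no filter, 2356 genes were lower and 1731 higher in all 16 combinations. The replicate block gave 240 genes at an unadjusted p under 0.05 and 0 calls. For the IR responses it gave 97 higher and 41 lower in control cells and 87 higher and 142 lower in RBM6-KO1 cells, and the crossed block, with untreated A set beside irradiated B, gave 389, 505, 382 and 683. Same-lettered libraries share only a letter. With no filter these counts were 479, 464, 402 and 628, and without normalization 112 genes were called higher in RBM6-KO1 cells. Leaving out 1 library moved them between 17 and 513, 3 and 315, 14 and 460, and 14 and 483.

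Of the 6 lists followed through the alternatives, the medians of 5 kept their sign and that of p53 targets did not. With 1 library left out they ran from -0.33 to -0.067 for mitotic kinases and cyclins, -0.35 to -0.14 for the kinetochore, -0.47 to -0.19 for the spindle, -0.38 to -0.25 for origin licensing, -0.34 to -0.12 for recombination and -0.088 to 0.051 for p53 targets. Of 72 genes followed through 18 alternatives, 69 kept their direction. Many of the named genes were chosen for a constant sign over all library combinations, so leaving out 1 library could hardly reverse them. The count of 69 is therefore not an independent measure of stability. CCNB1 ran from -0.22 to 0.0076 over the left-out libraries (above 0 without replicate A of control cells after IR), BRCA2 from -1.56 to 0.20 and MDM2 up to 0.085 (both above 0 without replicate B of that group). The cause of these changes was not tested. With 2 libraries per group the median standard error of a gene was 0.33 log2 units, which limits what could be detected for 1 gene, and 1 clone and 1 time point were measured.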
